A study of Rattus norvegicus with 17 samples.

Results

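Genes of glucocorticoid and corticotropin-releasing hormone (CRH) signalling, 10 in all, were followed in the hippocampus of adolescent rats. They were taken by symbol from the count table, and all 10 were found among its 34322 genes. They are the receptors Nr3c1 and Nr3c2, the receptor chaperone Fkbp5, the steroid-activating enzyme Hsd11b1, the CRH genes Crh, Crhr1 and Crhbp, and the hormone-responsive genes Sgk1, Tsc22d3 and Ddit4. RNA was sequenced from 17 Long-Evans rats aged 36 to 38 days, and the dams had been on their diets from gestational day 0 to 20. Ethanol-fed (ET) dams drank a liquid diet with 6.7% ethanol, pair-fed (PF) dams received matched amounts of liquid diet without ethanol, and ad libitum (AD) dams ate chow. All dams ate chow after day 20. The left hippocampus was used except in 4 libraries.

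The groups held 5 ET, 6 PF and 6 AD rats, and each group came from 1 litter, so diet and litter cannot be told apart. The p-values below therefore measure the spread between littermates. As the average of 3 technical replicates, between 10853947 and 17498392 fragments were counted per library. Of the 17 libraries, 3 (ET replicate 2, PF animal 11f6 and AD replicate 4) were left out of the study's final analysis, and they are left out here unless stated, which leaves 4 ET, 5 PF and 5 AD. These 3 stood apart in the summed normalized counts of 10 choroid plexus markers, with 128160, 137530 and 149550, against 2848 to 23387 in the other 14. All 7 hippocampal neuron markers were detected in every group.

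In the brain, corticosterone acts through a pair of nuclear receptors. The mineralocorticoid receptor (Nr3c2) binds it with high affinity and is abundant in hippocampal neurons, and the glucocorticoid receptor (Nr3c1) is occupied when hormone is high. Bound receptors induce genes such as Fkbp5, whose product lowers the receptor's affinity for hormone. CRH is made by scattered hippocampal interneurons, acts on the receptor Crhr1 and is bound by the secreted protein Crhbp.

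Across the 3 diet comparisons, none of the 10 stress genes passed the threshold. The threshold asked for an adjusted p under 0.01 together with a log2 fold change of over 1.5 in either direction, in edgeR's quasi-likelihood test. In ET against PF, 2.17% of 16068 genes tested passed it and 4.13% had an adjusted p below 0.05, while 0 of the 10 stress genes passed either rule and 0 had an unadjusted p below 0.05 (11.9% of all genes did). In ET against AD, 0.0127% of genes passed each of these rules, 0 of 10 stress genes passed, and 0 had an unadjusted p below 0.05 (2.74% of all genes). In PF against AD, 2.05% of genes passed the threshold and 5.17% the adjusted p of 0.05. There 0 of 10 stress genes passed, and 1 had an unadjusted p below 0.05 (16.4% of all genes). DESeq2 also called 0 of 10 in each comparison. Over the alternatives, the number of stress genes with an unadjusted p below 0.05 ran from 0 to 2 in ET against PF, 0 to 1 in ET against AD and 0 to 2 in PF against AD. Without ET replicate 1, the 2 in ET against PF were Nr3c1 (unadjusted p = 0.0181, adjusted p = 0.257) and Tsc22d3 (0.0260 and 0.312).

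The diet groups overlapped in every stress gene. Groups of normalized counts did not overlap in 6.78% of all genes in ET against PF, 1.18% in ET against AD and 6.57% in PF against AD. The 95% interval of the fold change lay within 2-fold in either direction for all 10 genes in each comparison. It lay within 1.5-fold for 6, 7 and 8 of them in ET against PF, ET against AD and PF against AD. In a simulation of ET against PF, the test recovered 64% of genes changed 1.5-fold and 100% changed 2-fold at an adjusted p below 0.05. These rates are over 50 genes at each fold size and were not split by count level. They need not hold for genes with low counts such as Crh, with at most 54.3 normalized counts in a library. At the threshold itself, which also asks for a large fold, 0 of 50 genes changed 1.5-fold and 1 of 50 changed 2-fold were called. Smaller differences could thus have been missed at this depth and group size, and for Nr3c2, Crh, Crhr1 and Crhbp, with SEs of 0.22 to 0.38 in this comparison, so could differences of 1.5-fold and above.

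**Figure D1:**
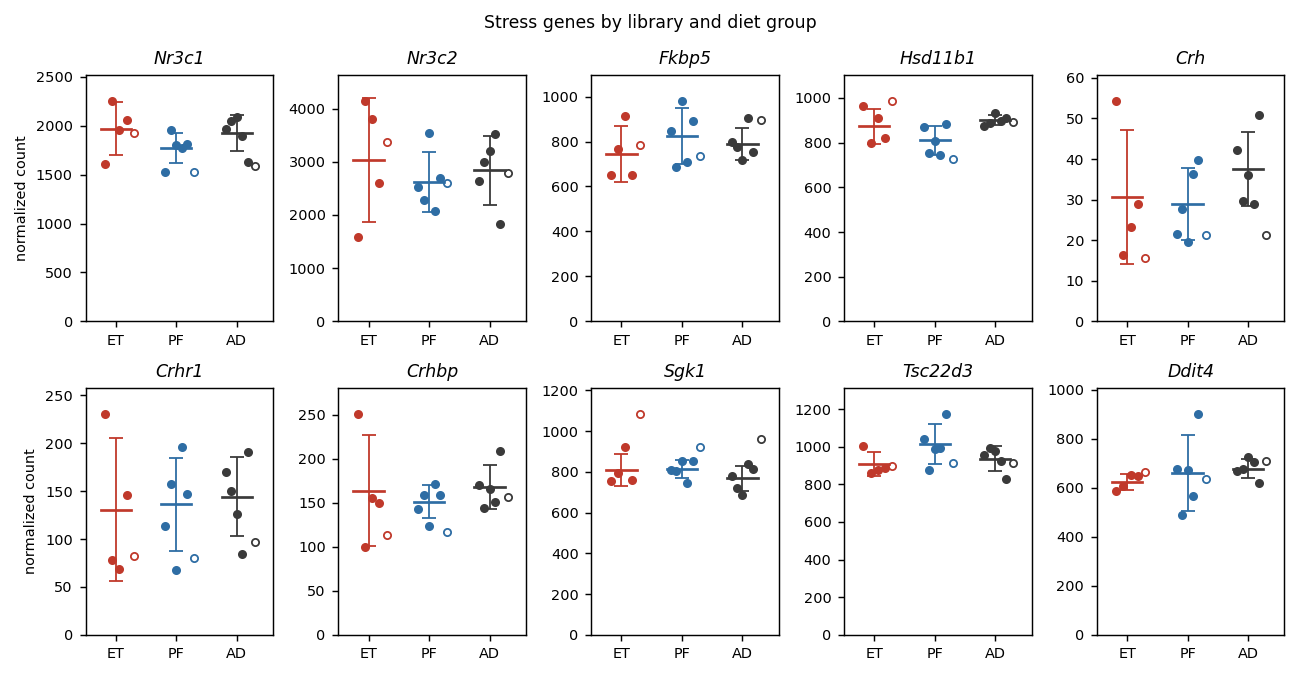
Normalized counts of the 10 stress genes in each of the 17 libraries by diet group, on axes that start at 0. Filled points are the 14 analysed libraries, open points the 3 left out, and bars the mean ± SD of the filled points; the groups overlap in every gene.

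The receptors differed little between diets. Nr3c2 had normalized counts of 1580, 4142, 3804 and 2602 in ET replicates 1, 3, 4 and 5. In PF, Nr3c2 was at 2519, 2278 and 3545 in replicates 1 to 3, 2079 in animal 11f5 and 2689 in replicate 6. In AD, Nr3c2 was at 2639, 2987, 3208, 3521 and 1838 in replicates 1, 2, 3, 5 and 6. ET replicates 1 and 3 were thus the lowest and the highest of all 14 libraries, within 1 group and 1 litter. The ET mean for Nr3c2 was 3032 ± 1172 (SD, n = 4) against 2622 ± 566 in PF (n = 5) and 2839 ± 645 in AD (n = 5). The log2 fold change of Nr3c2 was 0.21 ± 0.26 (SE) in ET against PF (edgeR adjusted p = 0.888) and 0.09 ± 0.26 in ET against AD (adjusted p = 1.00). The former was 0.42 without ET replicate 1 and 0.018 without ET replicate 3.

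Nr3c1, the glucocorticoid receptor, spread less than its partner. The Nr3c1 means were 1967 ± 270 in ET, 1773 ± 153 in PF and 1923 ± 183 in AD (SD). The log2 fold change was 0.15 ± 0.10 (SE) in ET against PF, with a 95% interval of 0.954 to 1.29-fold. It was 0.23 without ET replicate 1 and 0.079 without ET replicate 3. The ratio of Nr3c2 to Nr3c1 normalized counts, a quantity chosen after the data were seen, ran from 0.984 in ET replicate 1 to 1.97 in PF replicate 3. As a log2 ratio it averaged 0.54 ± 0.47 (SD, n = 4) in ET, 0.54 ± 0.32 (n = 5) in PF and 0.53 ± 0.26 (n = 5) in AD. Exact two-sided permutation tests over samples gave p = 0.984 for ET against PF, 1 for ET against AD and 0.952 for PF against AD.

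Fkbp5, the co-chaperone of the steroid receptors, was at 651, 766, 911 and 650 in ET replicates 1, 3, 4 and 5. PF libraries ran from 686 to 980, with a median of 847, and AD libraries from 718 to 903, with a median of 776. ET replicates 1 and 5 lay below both control ranges, and ET replicate 4 lay just above that of AD. The log2 fold change of Fkbp5 in ET against PF was -0.15 ± 0.13 (SE, adjusted p = 0.825). With single libraries left out it ran from -0.25, without ET replicate 4, to -0.067, without PF replicate 3.

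Hsd11b1, which regenerates active corticosterone inside cells, had the smallest p among the stress genes in any comparison. Its normalized counts in PF were 869, 752 and 805 in replicates 1 to 3, 742 in animal 11f5 and 885 in replicate 6, against 873 to 932 in the 5 AD libraries. The 2 groups met only at their edge, with PF replicate 6 inside the AD range. PF replicates 1 and 6 and AD replicate 3 (932) were the right-side libraries of these groups and held their highest counts. The log2 fold change of Hsd11b1 in PF against AD was -0.15 ± 0.05 (SE), with an unadjusted p of 0.0192 and an adjusted p of 0.185 in edgeR, so it did not pass. Over its alternatives the adjusted p ran from 0.0506, with brain side as a covariate, to 0.368, without PF replicate 2. In ET, Hsd11b1 was at 873 ± 77.6 (SD, n = 4).

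The CRH genes varied widely between animals. Crh, which encodes the peptide itself, was at 54.3, 16.5, 23.2 and 29.0 in ET replicates 1, 3, 4 and 5. PF libraries ran from 19.7 to 39.8 and AD libraries from 28.8 to 50.8, so the ET libraries reached beyond both ends of the PF range. In PF against AD the log2 difference of Crh was -0.36 ± 0.22 (SE, adjusted p = 0.473), the largest in size among the stress genes. Crh in ET against PF was 0.08 ± 0.34, and it was -0.35 without ET replicate 1, -0.015 without PF replicate 1 and -0.024 without PF replicate 3, so its sign depended on single libraries.

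Crhr1, the CRH receptor, was at 230, 77.8, 68.8 and 146 in ET replicates 1, 3, 4 and 5. It ran from 67.3 to 196 in PF and from 84.3 to 191 in AD. Its 95% interval in ET against PF was 0.534 to 1.72-fold, the widest of the 10 in that comparison. Crhbp, the CRH-binding protein, was at 250, 99.8, 155 and 150 in the same ET libraries, against 123 to 171 in PF and 144 to 209 in AD. Crhbp averaged 164 ± 62.9 (SD) in ET, 151 ± 18.5 in PF and 168 ± 25.5 in AD. ET replicate 1 had the highest count of all 3 CRH genes among the 14 libraries.

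The 3 hormone-responsive genes were steadier. Sgk1, a kinase induced by glucocorticoids and mineralocorticoids, averaged 808 ± 77.2 in ET, 813 ± 44.2 in PF and 769 ± 62.5 in AD (SD). In ET against PF, Sgk1 had a log2 fold change of -0.01 ± 0.07 (SE) and an interval of 0.892 to 1.11-fold. In the 3 libraries rich in choroid plexus markers, Sgk1 was at 1083 in ET replicate 2, 921 in PF animal 11f6 and 962 in AD replicate 4. Each was the highest Sgk1 count of its group. The part of choroid plexus RNA in that was not tested.

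Tsc22d3, which encodes the glucocorticoid-induced leucine zipper GILZ, was at 1002, 861, 878 and 886 in ET replicates 1, 3, 4 and 5, and ran from 878 to 1173 in PF. Its log2 fold change in ET against PF was -0.16 ± 0.08 (SE, unadjusted p = 0.0801, adjusted p = 0.524). With brain side as a covariate it was -0.078, and without PF replicate 6 it was -0.11. Of the 14 libraries, 0 of 4 in ET and 2 of 5 in PF were from the right side. Ddit4, an inhibitor of mTOR signalling, ran from 587 to 652 in ET and from 618 to 724 in AD. Its log2 fold change in ET against AD was -0.12 ± 0.06 (unadjusted p = 0.0588, adjusted p = 1.00). PF libraries spread most for Ddit4, from 487 in replicate 2 to 900.0 in replicate 6.

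**Figure D2:**
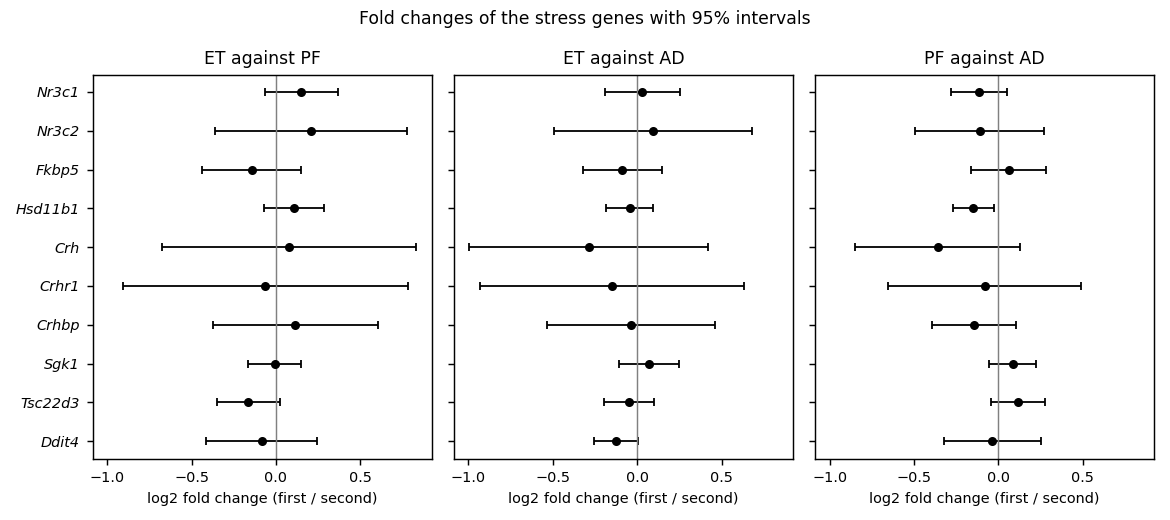
Log2 fold changes of the 10 stress genes in ET against PF, ET against AD and PF against AD, with 95% confidence intervals from edgeR. Only the interval of Hsd11b1 in PF against AD, 0.830 to 0.980-fold, does not cross the line of no change.

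Males and females were compared in the ET and PF libraries, with diet as a covariate (4 males and 5 females). In that fit 0.0303% of genes passed the threshold, 0.0425% had an adjusted p below 0.05 and 1.90% an unadjusted p below 0.05. Of the 10 stress genes 0 met any of these rules. Crh averaged 32.1 ± 7.41 (SD) in males and 28.0 ± 15.3 in females. Ddit4 averaged 692 ± 144 in males and 606 ± 77.7 in females, a log2 difference of 0.19 ± 0.14 (SE, unadjusted p = 0.218). The interaction of sex and diet had an unadjusted p below 0.05 in 0 of the 10 genes, against 231 of 16484 genes overall. The largest interaction among them was that of Crh, at -1.15 ± 0.64 (SE, log2; unadjusted p = 0.109). AD libraries were not used there, since in 2 of the 17 libraries the sex-linked counts went against the label.

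Although diet moved none of the stress genes past the threshold, several moved together between animals of the same diet. The SD of log2 normalized counts within diet groups was 0.62 for Crhr1, 0.49 for Crh, 0.44 for Nr3c2 and 0.33 for Crhbp. The median over 16272 genes was 0.16. Crhr1 exceeded 97.2% of genes, Crh 94.7%, Nr3c2 92.5% and Crhbp 84.8%. At the other end were Hsd11b1 (0.10) and Sgk1 (0.11).

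Each pair of the 10 genes was correlated over the 14 samples after the diet group means were subtracted, with 100000 permutations of the samples within diet groups. Of the 45 pairs, 8 had a Benjamini-Hochberg adjusted p below 0.05, 4 of them positive and 4 negative, and 9 did by rank correlation. The weakest of the 8 had an absolute r of 0.76, a value that 3.93% of all 132380856 pairs of the 16272 genes reached, beside 17.8% of the stress gene pairs. Whether the stress genes differ from other genes in this was not tested. Nr3c2 and Crhr1 had r = -0.92 and rho = -0.93 (permutation p = 7.0e-05 and 0.00016; adjusted p = 0.00225 and 0.0036). Crh and Crhbp had r = 0.92 and rho = 0.93 (permutation p = 1.0e-04 and 0.00015; adjusted p = 0.00225 and 0.0036). These are the 2 pairs whose adjusted p stayed below 0.05 without the 2 samples farthest from the median of the first gene, ET replicates 1 and 3, with r = -0.88 and 0.86 and an adjusted p of 0.0241 for each.

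The other 6 pairs lost that call without the 2 farthest samples, while r kept its sign. Nr3c2 also fell as Crhbp rose (r = -0.88, rho = -0.83; permutation adjusted p = 0.0054 and 0.0118; r = -0.81 without the 2 samples). Nr3c2 and Crh gave r = -0.86 and rho = -0.78 (permutation adjusted p = 0.0078 and 0.0276; r = -0.71 without them). Crhr1 gave r = 0.85 with Crh (rho = 0.83, permutation adjusted p = 0.0078 and 0.0162; 0.79 without them) and r = 0.76 with Crhbp (rho = 0.79, adjusted p = 0.0308 and 0.0197). For Crhr1 and Crhbp the farthest samples were PF replicate 3 and ET replicate 4, and r was 0.85 without them.

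Among the 4 glucocorticoid-induced members, Fkbp5 and Sgk1 were the 1 pair of 6 with an adjusted p below 0.05. They had r = 0.81 and rho = 0.81 (permutation p = 0.00035 and 0.00032; adjusted p = 0.00525 and 0.0048), and r = 0.79 without PF replicate 3 and ET replicate 5. With the 3 libraries rich in choroid plexus markers added, r was 0.58 (adjusted p = 0.0903). Fkbp5 had r = 0.18 and rho = 0.15 with Tsc22d3 and r = 0.57 and rho = 0.54 with Ddit4 (permutation p = 0.613 and 0.0793 for r, neither below an adjusted p of 0.05). Fkbp5 and Crhr1 had r = -0.80 and rho = -0.80 (permutation adjusted p = 0.0243 and 0.0327; r = -0.72 without the same 2 samples). The pair called by rank correlation alone was Nr3c2 and Fkbp5, with r = 0.69 and rho = 0.77 (permutation adjusted p = 0.0571 and 0.0359). Nr3c1 and Nr3c2 gave r = 0.67 and rho = 0.44 (permutation adjusted p = 0.115 and 0.381).

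**Figure D3:**
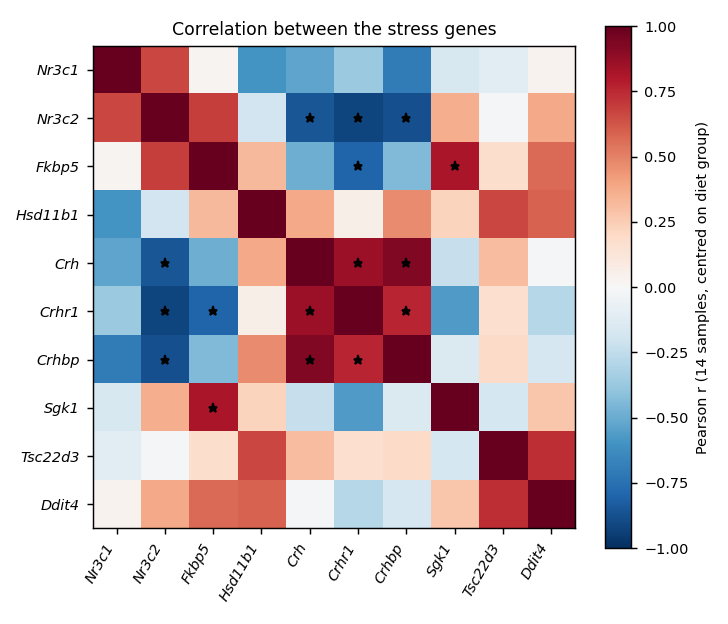
Pearson correlation between the 10 stress genes over 14 samples centred on their diet group, from -1 (blue) to 1 (red). Stars mark the 8 pairs with an adjusted p below 0.05; Nr3c2 is negative with Crh, Crhr1 and Crhbp, and these 3 are positive with each other.

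The same libraries differed in their share of hippocampal neuron markers. In ET replicate 1, where the CRH genes were highest and Nr3c2 lowest, the 7 hippocampal neuron markers summed to 58003 normalized counts, the lowest of the 14 libraries, which ran up to 95980. Prox1, a marker of dentate granule cells, was at 110 there and at 682 in ET replicate 3. Zbtb20, a factor of hippocampal projection neurons, was at 1591 and 6416 in the same 2 libraries. All 7 markers of this list were lower in ET replicate 1 than in ET replicate 3. The summed thalamus markers were at 978 and 2093 in these libraries, and the summed choroid plexus markers at 20898 and 4719. Of the 8 interneuron markers 6 were higher and 2 lower there. Sst, which marks somatostatin interneurons, was at 1472 and 454, while Gad2, an enzyme of GABA synthesis, was at 617 and 1353 and Gad1, its partner, at 2939 and 3079.

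Across the 14 samples, Nr3c2 rose with the summed hippocampal neuron markers (r = 0.87, rho = 0.90; permutation p = 0.00017 and 0.0002; adjusted p = 0.0122 and 0.0144 over 72 relations). It is the 1 relation of the 72, of 6 stress genes with 11 marker lists and the library total, with an adjusted p below 0.05, and r was 0.76 without ET replicates 1 and 3. Crhr1 and the 7 markers had r = -0.83 and rho = -0.80 (permutation adjusted p = 0.084 and 0.104; r = -0.73 without its 2 farthest samples), and Fkbp5 and the 7 markers r = 0.86 and rho = 0.86 (permutation adjusted p = 0.084 and 0.104; r = 0.83 without its 2). Camk2a, a kinase of excitatory neurons, made up 79.8% to 85.9% of the sum. The other 6 markers alone were then taken for Nr3c2, Crhr1 and Fkbp5, the 3 genes with the largest absolute r to the sum. Both choices were made after these results were seen. Nr3c2 had r = 0.97 and rho = 0.96, and r = 0.95 without ET replicates 1 and 3. Crhr1 had r = -0.82 and rho = -0.82 (r = -0.77 without its 2 samples), and Fkbp5 r = 0.62 and rho = 0.73 (r = 0.59 without its 2). The unadjusted permutation p of r was 6.0e-05, 0.00149 and 0.0314, beside 0.00017, 0.0024 and 0.0035 with all 7 markers. Genes and markers were picked from the same libraries, so these p-values do not count as a new test. Of the 72 relations, 17 had an unadjusted p below 0.05, and other cell types were among them. Nr3c2 had r = 0.78 and rho = 0.70 with astrocyte markers (permutation adjusted p = 0.0968 and 0.155) and r = -0.77 and rho = -0.74 with interneuron markers (permutation adjusted p = 0.118 and 0.104). Crhbp had r = 0.79 with interneuron and 0.77 with endothelial markers (permutation adjusted p = 0.118 and 0.120), and Crh r = 0.75 with endothelial markers (permutation adjusted p = 0.118). In a piece of tissue, fewer cells of a type and less RNA per cell cannot be told apart. The part of tissue makeup in the correlations between stress genes was not tested.

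**Figure D4:**
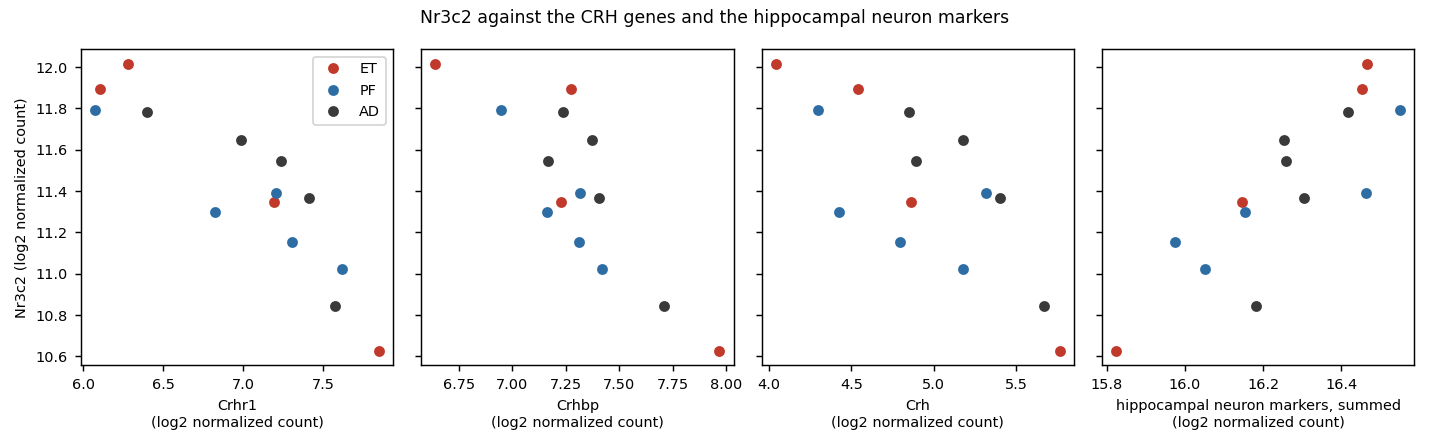
Log2 normalized counts of Nr3c2 against those of Crhr1, Crhbp, Crh and the summed hippocampal neuron markers in the 14 libraries, by diet group. Nr3c2 falls as the CRH genes rise (r = -0.92, -0.88 and -0.86) and rises with the markers (r = 0.87), in libraries of all 3 diets.

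For the 4 glucocorticoid-induced members, the 3 genes most like each were sought among 16271 genes by the same within-diet r over 14 samples, as a description. For Fkbp5 they were Anxa11 (r = 0.98), Smpd2 (0.97) and Chst1 (0.97). For Sgk1 they were Itpa (0.92), Klhl36 (0.90) and Nmb (0.87). For Tsc22d3 they were Senp3 (0.90), Wdr45b (0.89) and Gnpat (0.87), and for Ddit4 Bricd5 (0.93), LOC120096002 (0.91) and Nt5c2 (0.91). None of these 12 is another of the 10 stress genes, which says little, since those are few among 16271.

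Other genes of the pathway were followed in 4 lists. Of 17 receptor chaperones and cofactors, 0 passed the threshold in any comparison. Fkbp4, the co-chaperone that promotes receptor transport and opposes Fkbp5, was at 2102 to 2233 in PF and 2445 to 2821 in AD, with no overlap. Its log2 fold change was -0.24 ± 0.05 (SE) in PF against AD, with an adjusted p of 0.0115, the 1 gene of the 17 below 0.05, beside the 5.17% of all genes. In ET it was at 2465 to 2824, also above every PF library, and the log2 fold change was 0.23 ± 0.06 in ET against PF (adjusted p = 0.0623). Both comparisons share the PF libraries. The list's median log2 fold change was 0.03 in ET against PF and -0.02 in PF against AD, beside 0.01 and -0.00 over all genes. Among the smallest p-values of the list were also those of Hsp90aa1 and Ptges3 in ET against PF (log2 fold changes 0.17 and 0.08), Ptges3 and Ppid in ET against AD (0.08 and 0.07) and Ncoa3 in PF against AD (0.14), and none of these had an adjusted p below 0.05.

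Of 25 glucocorticoid-induced genes 24 were tested, and 0 had an adjusted p below 0.05 in any diet comparison. Their median log2 fold change was -0.02 in ET against PF, 0.01 in ET against AD and 0.00 in PF against AD. Per1, a clock gene with a glucocorticoid response element, was at 546 ± 47.2 (SD) in ET, 685 ± 134 in PF and 578 ± 42.7 in AD, and the log2 difference of ET from PF was -0.33 ± 0.13 (SE, adjusted p = 0.334). Zbtb16, a transcription factor induced by the hormone, was at 1102 ± 110 in ET and 1270 ± 40.1 in PF (log2 fold change -0.20 ± 0.07, adjusted p = 0.225). Cdkn1a, a cell cycle inhibitor, was at 128 ± 27.5 and 102 ± 8.98 (log2 fold change 0.33 ± 0.14, adjusted p = 0.384). Angptl4 in PF against AD was at 134 ± 29.7 and 100 ± 13.4 (log2 fold change 0.43 ± 0.15, adjusted p = 0.167). In ET against AD the smallest p-values belonged to Fam107a, Zbtb16 and Per1 (log2 fold changes -0.21, -0.16 and -0.09), and in PF against AD, after Angptl4, to Sdc4 and Per1 (0.15 and 0.25).

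Of 13 genes of steroid synthesis, metabolism and transport, 7 were tested in ET against PF and 0 passed either rule. H6pd, which supplies the cofactor of Hsd11b1, was at 225 ± 15.8 in ET, 254 ± 8.59 in PF and 234 ± 13.96 in AD (SD). Its log2 fold change in ET against PF was -0.17 ± 0.07 (SE, adjusted p = 0.313). The list's median was -0.13. Srd5a1, which reduces steroids, and Star, which brings cholesterol into mitochondria, were next (0.24 and -0.58). In ET against AD, where 6 were tested, Srd5a1, Tspo and Akr1c14 had the smallest p-values (0.26, -0.56 and -0.34), and in PF against AD H6pd, Tspo and Abcb1a (0.12, -0.79 and 0.09). None of these log2 fold changes passed. The values of Tspo, a mitochondrial membrane protein, rested on AD replicate 6, at 129.4 normalized counts against 24.2 to 35.5 in the other 4 AD libraries. Without it the AD mean was 29.4, beside 32.9 in ET and 27.7 in PF.

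Of 17 genes of the CRH family and other stress neuropeptides, 16 were in the count table, 10 were tested and 0 passed either rule. Mc4r, a melanocortin receptor, was at 13.5 ± 2.67 in ET, 23.7 ± 6.90 in PF and 13.01 ± 3.63 in AD (SD). Its log2 fold change was -0.81 ± 0.25 (SE, adjusted p = 0.144) in ET against PF and 0.88 ± 0.24 (adjusted p = 0.0652) in PF against AD. The neuropeptide gene Gal and the oxytocin receptor gene Oxtr followed in ET against PF (log2 fold changes 0.52 and -0.98). In ET against AD the smallest p-values were those of Pomc, Gal and Oxtr (-0.50, 0.36 and -0.47), and in PF against AD, after Mc4r, those of Npy and Pomc (-0.33 and -0.45). Avp and Oxt, hypothalamic hormone genes, did not pass the filter on low counts.

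Markers of oligodendrocytes, the myelin-forming cells, were examined beside these values. Of the 6, 1 had an adjusted p below 0.05 in ET against PF, 0 in ET against AD and 1 in PF against AD, and their median log2 fold changes were 0.39, 0.07 and -0.29. The 6 oligodendrocyte markers summed to 271800 to 348190 normalized counts in ET, 197890 to 271210 in PF and 231380 to 327120 in AD. Mag, a myelin adhesion protein, had a log2 fold change of -0.40 ± 0.10 in PF against AD (SE, adjusted p = 0.0366). Mog, another myelin protein, was at -0.07 in ET against PF and 0.14 in PF against AD on the same scale. Thalamus and meninges markers had medians of 0.51 and 0.36 in ET against PF and -0.24 and -0.29 in PF against AD, with 0 markers below an adjusted p of 0.05. In ET against AD these medians were 0.42 and -0.03. Choroid plexus markers had medians of 0.16 in ET against PF, 1.11 in ET against AD and 0.84 in PF against AD, also with 0 below it. The part of these genes in the values of Fkbp4 and Hsd11b1 was not tested.

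Promoters were read from RefSeq (GRCr8, a later assembly than the one the reads were mapped to) for the stress genes, since several move together. Sequences were found for 7 of the 10 genes, with 13 start sites, and not for Crh, Hsd11b1 and Nr3c2. The glucocorticoid response element (AGAACA and TGTTCT with any 3 letters between), its shorter form (GNACA and TGTNC with any 3 letters between) and its half-site TGTTCT were searched on both strands in the 300 bases from 250 before to 50 after each start, where the half-site lies within the full element. None of the 13 windows held any of the 3 forms, and of 33469 promoters 0.01%, 0.44% and 20.68% did. The 2 windows of Crhr1 overlap, and sequence beyond the windows was not searched, so elements farther from the starts would have been missed. The letters TGACG, a cyclic AMP response half-site, were in 2 of the 13 windows and in 21.2% of all promoters, and TATAAA was in 4 and in 14.22%. The 250 bases upstream of 3 start sites are shown, on the strand of the gene, since Crhbp is 1 of the correlated CRH genes and Fkbp5 and Sgk1 are a correlated pair. Capitals mark TGACG or TATAAA on either strand, so that the CGTCA of Crhbp is TGACG on the other strand. The TATAAA of Crhbp crosses the end of the stretch shown and is not marked. Crhbp is at chr2:28439447-28439696 and Fkbp5 at chr20:6543556-6543805, both on the minus strand, and Sgk1, the first of 3 starts, at chr1:24804832-24805081, also on the minus strand.
Crhbp: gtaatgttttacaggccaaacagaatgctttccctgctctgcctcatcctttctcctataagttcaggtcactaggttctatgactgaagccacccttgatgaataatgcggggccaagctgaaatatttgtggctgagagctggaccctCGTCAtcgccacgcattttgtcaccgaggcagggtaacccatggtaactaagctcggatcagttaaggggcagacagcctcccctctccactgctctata
Fkbp5: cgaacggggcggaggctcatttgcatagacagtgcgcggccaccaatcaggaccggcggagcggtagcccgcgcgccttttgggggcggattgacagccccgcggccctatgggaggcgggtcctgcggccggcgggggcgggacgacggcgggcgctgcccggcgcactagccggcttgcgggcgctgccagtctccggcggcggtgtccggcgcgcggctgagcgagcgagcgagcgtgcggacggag
Sgk1: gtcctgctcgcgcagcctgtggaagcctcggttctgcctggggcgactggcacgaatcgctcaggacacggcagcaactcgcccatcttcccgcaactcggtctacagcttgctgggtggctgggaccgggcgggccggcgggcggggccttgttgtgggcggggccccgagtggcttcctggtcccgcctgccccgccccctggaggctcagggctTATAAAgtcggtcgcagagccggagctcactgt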

How the data were processed

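Hippocampal RNA was sequenced with a stranded mRNA kit, in 3 technical replicates per sample. The authors trimmed reads with fastp, mapped them to mRatBN7.2 with Bowtie2 2.4.2 and counted fragments on exons with featureCounts 2.0.1, with reads allowed to map to multiple features; the strand setting and annotation release are not given in the sources used here. The deposited values are plain averages of the counts of 3 technical replicates, which need not be whole, so they were handled like expected counts and rounded to whole numbers. Groups came from the labels, and PF animals 11f5 and 11f6 are named by animal because the labels do not tie them to replicate numbers. Low-count genes were removed with filterByExpr, libraries were scaled by TMM, and groups were compared with edgeR 4.0.16 in R 4.3.3 (DESeq2 1.42.0 as an alternative), with Benjamini-Hochberg adjustment over all genes tested. Normalized counts and marker sums as printed are TMM-scaled over the 17 libraries. Correlations used log2(normalized count + 1) in Python 3.11.15. There the genes were scaled over the 14 libraries, unless all 17 were used, and the marker sums over the 17. The edgeR step was tested on simulated counts. The stress genes, lists and tests were chosen with earlier results of these data known. All 10 genes are named; of each pathway list, genes past the threshold or else those with the smallest p are named, apart from Avp and Oxt, named after their values were seen. Some genes that this rule would name are not reported here. The receptor ratio, the marker correlations, the share of all gene pairs and the promoter search were added after the data were seen. Fragments carry no molecular identifiers, so intervals do not cover amplification error.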

Additional observations from a re-analysis of the deposited data

How the results depend on the processing

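The count of stress genes past the threshold was 0 in each diet, sex and interaction comparison under every alternative run. The alternatives covered all 17 libraries, DESeq2, another scaling, no filter, summed technical replicates, 1 fit of 3 groups, covariates and looser thresholds, and each library left out in turn. The smallest adjusted p among the 770 alternative values was 0.0506, for Hsd11b1. Signs changed in 75 of the 770, none with an adjusted p under 0.384, and the cause was not tested. In ET against PF with all 17 samples, the changed values were Sgk1 0.055. In ET against PF with side as a covariate, the changed values were Sgk1 0.0088, Ddit4 0.11. In PF against AD with all 17 samples, the changed values were Fkbp5 -0.0019. In males against females with all 17 samples, the changed values were Nr3c1 -0.019, Fkbp5 -0.0055, Crh -0.016, Crhr1 -0.11, Crhbp -0.11. In males against females with AD added as labelled, the changed values were Nr3c2 0.10, Crhr1 -0.082, Crhbp -0.022. In males against females with AD added, AD replicates 1 and 2 left out, the changed values were Nr3c2 0.15, Crh -0.018, Crhr1 -0.13, Crhbp -0.080, Sgk1 -0.0058. The 8 correlated pairs became 2 without the 2 samples farthest from the median, where fewer samples were used, and were 8 with all 17 libraries, where Fkbp5 and Sgk1 were not among them, and 8 with another scaling.

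With single libraries left out, log2 fold changes whose sign changed had these ranges. In ET against PF, Crh ran from -0.35 to 0.29, Crhbp ran from -0.17 to 0.29, Sgk1 ran from -0.073 to 0.021, Crhr1 ran from -0.49 to 0.15, Ddit4 ran from -0.18 to 0.050. In ET against AD, Nr3c1 ran from -0.040 to 0.11, Nr3c2 ran from -0.10 to 0.30, Crhr1 ran from -0.57 to 0.064, Crhbp ran from -0.32 to 0.14. In PF against AD, Ddit4 ran from -0.17 to 0.058, Fkbp5 ran from -0.015 to 0.12, Crhr1 ran from -0.25 to 0.084. In males against females, Nr3c1 ran from -0.050 to 0.11, Fkbp5 ran from -0.10 to 0.11, Hsd11b1 ran from -0.081 to 0.043, Sgk1 ran from -0.048 to 0.079, Nr3c2 ran from -0.28 to 0.18, Crhr1 ran from -0.13 to 0.55, Crhbp ran from -0.15 to 0.35, Tsc22d3 ran from -0.043 to 0.11. Leaving out ET replicate 1 or 3 gave the ends of the ranges of Crh and Crhbp in ET against PF.

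The replicate numbers do not pair the samples, which are different animals. Deviations from group means of same-numbered samples correlated at 0.0075 and 0.61 in ET against PF, -0.22 to 0.16 in ET against AD and -0.097 to 0.12 in PF against AD. With the replicate number as a block 0 stress genes passed in each comparison, and some log2 fold changes changed sign. In ET against PF these were Nr3c2 -0.22, Crhr1 0.67. In ET against AD these were Nr3c1 -0.016, Nr3c2 -0.27, Crhr1 0.20. In PF against AD these were Nr3c2 0.059. Fkbp5 in ET against PF was -0.37 with the block (unadjusted p = 0.0174, adjusted p = 0.321), and the p of Crhr1 there was 0.0250 (adjusted p = 0.384). Depth limits Crh most, with at most 54.3 normalized counts in a library.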
